A study of Homo sapiens with 6 samples.

Results

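A set of 9 genes whose products limit retroelement RNA or complementary DNA was followed in SW480 colon cancer cells: the cytidine deaminase genes *APOBEC3B*, *APOBEC3C*, *APOBEC3F* and *APOBEC3G*, together with *SAMHD1*, *TREX1*, *MOV10*, *ZC3HAV1* and *RNASEH2A*. The genes were chosen by name for this function, and their TPM (transcript abundance corrected for transcript length and scaled to a fixed total) were summed by gene in every library. All 9 were present among the 28307 genes of the tables, and all 9 were among the 13300 genes that reached a mean of 1 TPM and were tested.

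SW480 is an established human colon adenocarcinoma line. The cells had been transduced with lentivirus carrying pLENTI CMV Clover, a fluorescent protein control, or pLENTI CMV Z18trunc, a shortened ZC3H18, which in its full form takes part in nuclear RNA surveillance. Both constructs were driven by the CMV promoter, and the cells were kept under antibiotic selection. Both groups kept their own *ZC3H18* gene. The lines had been made in biological triplicate. Each group held 3 libraries of polyadenylated RNA (18226033 to 22463310 aligned fragments). The comparison addresses whether cells in which the study examined retroelement RNA also differed in the RNA of the factors that limit such elements.

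Retroelements copy themselves through RNA, and cells restrict them at each step of that cycle. APOBEC3 enzymes deaminate cytidines in reverse-transcribed DNA, and several of them also act without deamination. SAMHD1 hydrolyses the deoxynucleotides that reverse transcription needs, TREX1 degrades cytosolic DNA, MOV10 and ZC3HAV1 (also called ZAP) act on retroelement RNA, and RNASEH2A is the catalytic subunit of RNase H2, which cuts RNA in RNA-DNA hybrids. Most of these factors are best known from blood cells and from antiviral defence, and inherited loss of *TREX1*, *SAMHD1* or *RNASEH2A* causes the interferonopathy Aicardi-Goutières syndrome.

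The labels were checked first. *ZC3H18* stood at 58.4, 51.3 and 61.8 TPM in Clover and at 752, 739 and 798 TPM in Z18trunc (log2 difference 3.72, SE 0.09, limma adjusted p = 3.2e-05). The epithelial markers *KRT8* (9394 to 10116 TPM), *KRT18* (10842 to 12124 TPM), *EPCAM* (289 to 375 TPM) and *CDX2* (41.8 to 49.6 TPM) were present in all libraries, while *CDX1* was listed at 0 in all 6. Because leukocytes carry high levels of several restriction factors, their markers were also read. The 8 leukocyte markers summed to 1.66 to 1.99 TPM in Clover and 0.748 to 1.17 TPM in Z18trunc, with 4 of 8 (*PTPRC*, *CD3D*, *MS4A1* and *ITGAM*) at 0 throughout and most of the sum in *CD14*. The 5 fibroblast markers summed to 1.31 to 1.55 and 1.17 to 1.55 TPM (2 of 5 at 0), and the 3 endothelial markers to 0.403 to 0.494 and 0.229 to 0.503 TPM.

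None of the 9 restriction factor genes was called at an adjusted p under 0.05 (limma on log2(TPM + 1), Benjamini-Hochberg over all 13300 genes), where 2 genes, or 0.0150% of those tested, were called. At an unadjusted p under 0.05, 3 of 9 were higher in Z18trunc (*SAMHD1*, *ZC3HAV1* and *APOBEC3G*) and 0 of 9 lower, against 25.6% of all genes higher and 2.90% lower. The same 3 members were those whose 3 Z18trunc libraries all lay above the 3 Clover libraries, and 0 of 9 lay wholly below. Among all genes 30.1% were separated in this way upward and 6.73% downward, so the members' count was close to the background. The median difference of the 9 members was 0.0005 on the log2(TPM + 1) scale, and that of all tested genes was 0.11, with 3 of 9 members above it. Quantile normalization, which forces the libraries to 1 distribution, moved the median of all genes to -0.006 and that of the members to -0.02, and it changed the unadjusted split over all genes from 3404 higher and 386 lower to 1708 higher and 1448 lower. In bulk libraries a change in the number of cells that express a gene and a change in its RNA per cell cannot be told apart. P-values here measure the spread between the 3 libraries of each group, and differences on this scale understate the change of low genes.

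**Figure D1:**
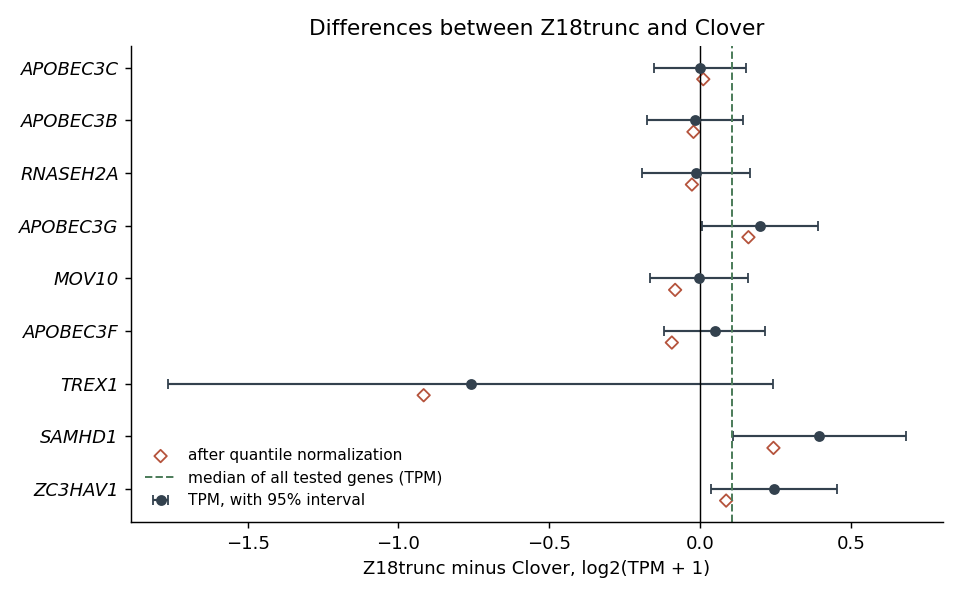
Difference between Z18trunc and Clover for each restriction factor gene, on the log2(TPM + 1) scale. Filled points are the limma estimates from 3 against 3 libraries with 95% intervals, open diamonds the values after quantile normalization, and the dashed line the median of all 13300 tested genes (0.11). The intervals of SAMHD1, ZC3HAV1 and APOBEC3G lay above 0, TREX1 had the widest interval, and the other 5 lay within 0.22 of 0 on both sides.

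The 5 highest of the 9 genes were the same in all 6 libraries, while the order of the rest differed. Of the rest, *TREX1* had the highest mean in Clover (24.1 TPM) and the lowest in Z18trunc (15.5 TPM). *APOBEC3C* was the highest at 229 ± 3.67 TPM (SD, n = 6 libraries), a level above 94.5% of the tested genes, and its lowest library lay above the highest library of any other member. *APOBEC3B* (166 ± 3.95 TPM) and *RNASEH2A* (158 ± 6.58 TPM) followed with overlapping ranges and exchanged places between libraries. *APOBEC3G* (117 ± 11.1 TPM) and *MOV10* (56.7 ± 1.68 TPM) came next, each separated from its neighbours. *APOBEC3F* (22.6 ± 0.867 TPM), *TREX1* (19.8 ± 7.71 TPM), *SAMHD1* (19.4 ± 3.42 TPM) and *ZC3HAV1* (16.2 ± 1.84 TPM) made up the lower end, where each range overlapped that of the next gene. *APOBEC3C*, *APOBEC3G* and *MOV10* held ranks 1, 4 and 5 in all 6 libraries.

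**Figure D2:**
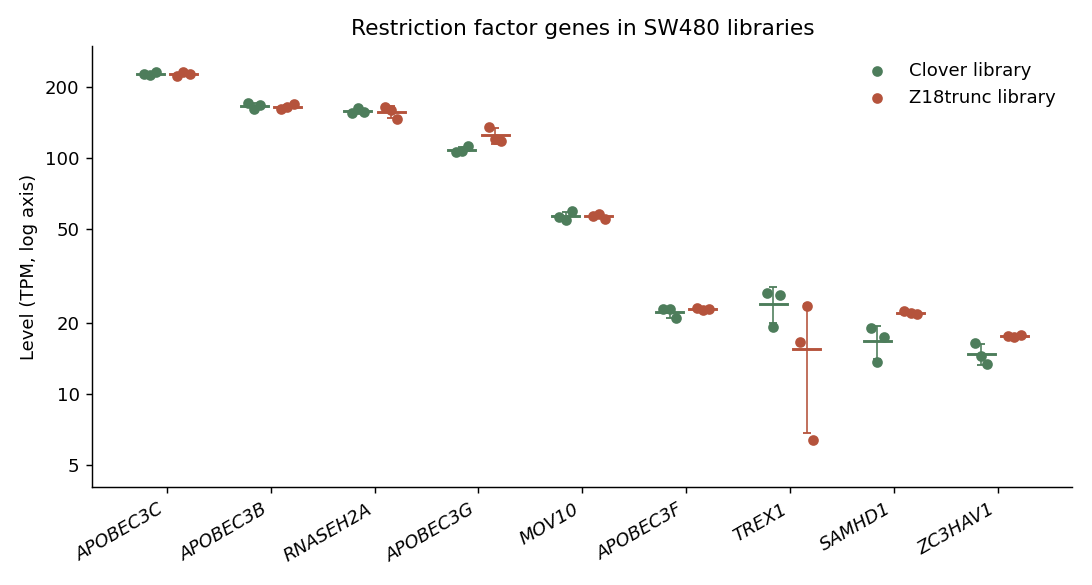
Level of the 9 restriction factor genes in each library, in TPM on a log axis. Points are libraries (3 Clover, 3 Z18trunc), horizontal lines the group means and vertical bars 1 SD. APOBEC3C lay at 225 to 233 TPM in all 6 libraries, whereas TREX1 spread from 6.34 to 26.9 TPM.

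The deaminase genes lie in a cluster on chromosome 22 (hg38), all on the plus strand and with *APOBEC3D* between *APOBEC3C* and *APOBEC3F*: *APOBEC3B* at 38982347 to 38992779, *APOBEC3C* at 39014257 to 39020352, *APOBEC3F* at 39040864 to 39055970 and *APOBEC3G* at 39077005 to 39087743. They arose by duplication and share similar sequence, so reads may have been divided between them. Together they gave 528, 518 and 535 TPM in Clover and 546, 542 and 539 TPM in Z18trunc, and the 3 Z18trunc sums lay above all Clover sums. Of all single genes, 30.1% were separated upward in the same way. Only *APOBEC3G* of the 4 was separated by itself, and the other 3 overlapped between groups.

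*APOBEC3C*, a single-domain deaminase, was at 227.3, 226 and 233 TPM in Clover and at 225, 233 and 229 TPM in Z18trunc. The groups overlapped completely (log2 difference 0.0005, 95% interval -0.15 to 0.15, limma adjusted p = 0.997). *APOBEC3B*, a nuclear deaminase known for mutations in tumours, was at 171, 162 and 169 TPM in Clover and at 162, 165 and 169 TPM in Z18trunc. Its antisense partner *APOBEC3B-AS1* was at 0 to 0.671 TPM. *APOBEC3B* too overlapped between groups (log2 difference -0.02, 95% interval -0.17 to 0.14, limma adjusted p = 0.893). *APOBEC3F*, a double-domain cytoplasmic enzyme, was at 22.9, 22.9 and 20.9 TPM in Clover and at 23.2, 22.7 and 23.0 TPM in Z18trunc (log2 difference 0.05, 95% interval -0.12 to 0.22, limma adjusted p = 0.693). Its small difference changed sign after quantile normalization (-0.09).

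*APOBEC3G*, the double-domain enzyme best known for restricting HIV-1 that lacks Vif, was at 107, 107 and 112 TPM in Clover and at 136, 121 and 118 TPM in Z18trunc. All Z18trunc libraries were higher, the first by the widest margin. The log2 difference was 0.20 (SE 0.08, unadjusted p = 0.046), which did not pass over all genes (limma adjusted p = 0.169), and it was 0.16 after quantile normalization. Without the first Z18trunc library it was 0.14.

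The remaining 3 genes of the cluster, read as background to the members, were at low levels. *APOBEC3D* lay at 3.11, 2.87 and 3.29 TPM in Clover and at 4.51, 4.40 and 4.47 TPM in Z18trunc, without overlap (log2 difference 0.42, limma adjusted p = 0.077). *APOBEC3H* ran the other way, at 5.14, 6.79 and 5.88 TPM in Clover and 4.18, 4.31 and 4.67 TPM in Z18trunc, also without overlap (log2 difference -0.36, limma adjusted p = 0.093). *APOBEC3A* overlapped between groups (2.54 to 3.77 TPM and 2.68 to 3.24 TPM). Thus 0 of 3 were called, and at an unadjusted p under 0.05 there was 1 in each direction, against 25.6% of all genes higher and 2.90% lower.

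*SAMHD1*, the deoxynucleotide hydrolase on the minus strand of chromosome 20 (36889775 to 36951708), had the smallest unadjusted p of the 9 members. It was at 19.0, 13.7 and 17.5 TPM in Clover and at 22.4, 22.0 and 21.9 TPM in Z18trunc. The Z18trunc libraries were tightly grouped and all higher, while the second Clover library was the lowest of the 6. The log2 difference was 0.39 (SE 0.12, 95% interval 0.11 to 0.68, unadjusted p = 0.014) and did not pass over all genes (limma adjusted p = 0.099, from 0.0801 to 0.227 under the alternatives). It was 0.27 without the second Clover library and 0.24 after quantile normalization. The gene's 3′ end overlaps *TLDC2* on the opposite strand (36876121 to 36894231), which was at 11.9 to 15.7 TPM. Leukocytes also express *SAMHD1*. Of their 8 markers, 4 were at 0 in all 6 libraries. The marker sum, mostly *CD14*, was 1.66 to 1.99 TPM in Clover and 0.748 to 1.17 TPM in Z18trunc. Any tie of these low values to *SAMHD1* was not tested.

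Among 9973 genes with a mean of at least 5 TPM, those whose levels followed *SAMHD1* most closely over the 6 libraries included *RBM20*, *CERS6*, *COPS8* and *PTAR1* (Pearson r of log2(TPM + 1) 0.999, 0.997, 0.997 and 0.997, n = 6 libraries). These 4 were lowest in the second Clover library, as *SAMHD1* was. *CERS6*, for example, was at 25.2, 17.3 and 23.6 TPM in Clover and at 29.6, 29.6 and 29.5 TPM in Z18trunc. These genes were picked as the closest among 9973 over only 6 libraries, so the values describe a pattern and carry no test.

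*ZC3HAV1*, the CpG-binding antiviral RNA factor on the minus strand of chromosome 7 (139043515 to 139109720), was at 16.4, 14.4 and 13.4 TPM in Clover and at 17.7, 17.4 and 17.7 TPM in Z18trunc. Its Z18trunc libraries were again tightly grouped and above all Clover libraries. The log2 difference was 0.24 (SE 0.09, unadjusted p = 0.028, limma adjusted p = 0.132). After quantile normalization the difference was 0.09.

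The bases upstream of both genes are shown because these were the members with separated groups for which a promoter window was at hand. Windows from RefSeq (GRCh38.p14) of 250 bases before and 50 bases after a start site were matched by symbol for 5 of 9 members. The 250 upstream bases are printed 5′ to 3′ on the gene's strand, at chr20:36951709-36951958 for *SAMHD1* and chr7:139109721-139109970 for *ZC3HAV1*, both minus strand. Capitals mark the CCAAT box (CCAAT) and the core of the NRF1 motif (CGCNTGCGC) in *SAMHD1* and the TATA box (TATAAA) in *ZC3HAV1*, each searched on both strands and chosen after the sequences had been seen.
SAMHD1: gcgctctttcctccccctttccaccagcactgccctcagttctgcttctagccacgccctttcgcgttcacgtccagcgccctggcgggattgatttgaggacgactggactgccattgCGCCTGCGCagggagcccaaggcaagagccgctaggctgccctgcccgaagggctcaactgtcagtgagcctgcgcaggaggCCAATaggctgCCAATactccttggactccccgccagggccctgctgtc
ZC3HAV1: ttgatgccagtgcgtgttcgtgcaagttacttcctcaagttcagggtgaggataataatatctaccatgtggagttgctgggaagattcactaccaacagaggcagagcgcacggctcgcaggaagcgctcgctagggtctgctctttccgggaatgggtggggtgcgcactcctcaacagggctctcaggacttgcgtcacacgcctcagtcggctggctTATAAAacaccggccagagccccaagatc

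In the 300-base windows CCAAT was present in 34.61% of all 35116 RefSeq windows, CGCNTGCGC in 7.52% and TATAAA in 11.53%. *SAMHD1* held 2 CCAAT matches and 2 CGCNTGCGC matches, of which 1 lay past the printed bases, and the TATAAA of *ZC3HAV1* began at position -29 from its start. The core of the interferon-stimulated response element (GAAANNGAAA), found in 3.57% of all windows, was in 0 of the 7 windows of the members. Those windows covered 5 of 9 members, with none for the APOBEC3 genes and several for *MOV10*. With so few windows and so rare a motif, this 0 says little about the set.

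*TREX1*, the main cytosolic DNA exonuclease (chromosome 3, plus strand, 48465830 to 48467645), varied more, relative to its mean, than any other member. It was at 26.9, 19.3 and 26.3 TPM in Clover and at 16.6, 23.5 and 6.34 TPM in Z18trunc, so the groups overlapped and the third Z18trunc library was far below the rest. The log2 difference was -0.76 with a wide 95% interval of -1.76 to 0.24 (limma adjusted p = 0.280). Without the third Z18trunc library it was -0.26.

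The gene lies inside the spans of *ATRIP*, which encodes a partner of the ATR kinase, and of the readthrough gene *ATRIP-TREX1*, on the same strand and with the same 3′ end. In the third Z18trunc library, where *TREX1* was at 6.34 TPM, *ATRIP-TREX1* was at 15.2 TPM and *ATRIP* at 1.83 TPM. In the other 5 libraries *ATRIP* was at 9.62 to 12.4 TPM and *ATRIP-TREX1* at 0.165 to 4.48 TPM. The 3 libraries with the most TPM under the readthrough name were also the 3 with the least under *TREX1*, the others being the second Clover library (4.48 and 19.3 TPM) and the first Z18trunc library (2.89 and 16.6 TPM). Summed over the 3 genes the locus held 36.7, 33.7 and 39.2 TPM in Clover and 30.5, 33.6 and 23.3 TPM in Z18trunc. All Z18trunc sums were then below the Clover sums, at the nearest by a very narrow margin (33.6 against 33.7 TPM). Among all genes 6.73% were separated downward. The log2 difference of -0.33 for the sum did not pass (limma adjusted p = 0.181, from 0.181 to 0.497 over the alternatives for *TREX1*). How reads were divided among the 3 names was not tested, and a level of *TREX1* alone is uncertain here.

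**Figure D3:**
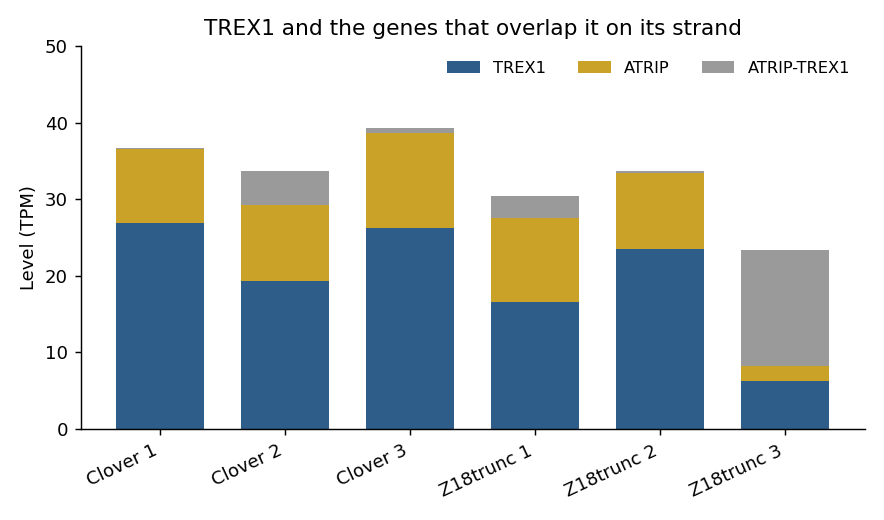
Level of TREX1 and of the genes that overlap it on its strand, ATRIP and the readthrough gene ATRIP-TREX1, in TPM, stacked for each of the 6 libraries. Bars start at 0. In the third Z18trunc library TREX1 was at 6.34 TPM and ATRIP-TREX1 at 15.2 TPM, and the stack as a whole was 23.3 TPM against 30.5 to 39.2 TPM elsewhere.

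*MOV10*, an RNA helicase of ribonucleoprotein granules (chromosome 1, plus strand, 112674312 to 112700746), was at 56.3, 54.7 and 59.4 TPM in Clover and at 56.7, 57.8 and 55.5 TPM in Z18trunc. The groups overlapped (log2 difference -0.004, 95% interval -0.17 to 0.16, limma adjusted p = 0.980). *RNASEH2A* (chromosome 19, plus strand, 12806584 to 12813640) was at 156, 164 and 157 TPM in Clover and at 165, 160 and 147 TPM in Z18trunc, which also overlapped (log2 difference -0.02, 95% interval -0.19 to 0.16, limma adjusted p = 0.915).

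RNase H2 works as a complex with RNASEH2B and RNASEH2C. *RNASEH2B* was higher in every Z18trunc library (43.6, 41.8 and 42.6 against 47.9, 48.2 and 53.4 TPM, log2 difference 0.22, limma adjusted p = 0.121). *RNASEH2C* was lower in every Z18trunc library (68.7, 70.4 and 65.6 against 63.5, 63.7 and 59.2 TPM, log2 difference -0.13, limma adjusted p = 0.265). *RNASEH1*, which encodes the separate enzyme RNase H1, overlapped between groups at 25.8 to 34.0 and 33.7 to 36.2 TPM. None of the 3 was called, and 1 was higher at an unadjusted p under 0.05, as were 25.6% of all genes.

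Cofactors of ZAP were read beside *ZC3HAV1*, and 0 of 4 were called. *RIOK3* (30.3 to 35.4 TPM in Clover, 40.1 to 46.9 TPM in Z18trunc, log2 difference 0.39, limma adjusted p = 0.080) and *N4BP1* (6.13 to 7.49 and 8.75 to 8.88 TPM, log2 difference 0.35, limma adjusted p = 0.081) were higher at an unadjusted p under 0.05. *KHNYN*, a nuclease partner, and *TRIM25*, a ubiquitin ligase partner, had log2 differences of 0.21 and 0.18. That was 2 of 4, against 25.6% of all genes. All 4 differences were above the median of all genes, and their own median was 0.28 before and 0.14 after quantile normalization.

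A list of 6 genes of deoxynucleotide metabolism and uracil removal, read beside *SAMHD1*, gave 0 calls. The ribonucleotide reductase genes *RRM1* (58.0 to 64.9 TPM in Clover, 75.4 to 89.7 TPM in Z18trunc, log2 difference 0.42, limma adjusted p = 0.077) and *RRM2B* (5.52 to 6.53 and 7.78 to 9.20 TPM, log2 difference 0.38, limma adjusted p = 0.084) were higher at an unadjusted p under 0.05. *RRM2* was also separated (207 to 248 and 253 to 269 TPM, log2 difference 0.18, limma adjusted p = 0.231). The list thus had 2 of 6 higher at that threshold and 3 of 6 separated upward. Over all genes these shares were 25.6% and 30.1%, and 6 genes are too few to tell the list from them. *TYMS*, *DUT* and *UNG* overlapped between groups, with log2 differences of 0.08, -0.006 and -0.07.

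The wider lists gave the same count of 0 calls. Of 14 tested factors that act on retroelement RNA or its ribonucleoproteins, 6 were higher at an unadjusted p under 0.05 and 0 lower, with a median log2 difference of 0.27 (0.16 after quantile normalization). Over all tested genes the shares at this threshold were 25.6% higher and 2.90% lower. Of 8 DNA repair and replication genes linked to LINE-1 insertion, not all of which limit it, 3 were higher and 0 lower (median 0.30, and 0.13 after quantile normalization). Of 11 tested antiretroviral genes, 3 were higher and 1 lower, and of 4 tested genes of cytosolic DNA sensing, 1 was higher and 0 lower. The 4 genes of these lists with the smallest unadjusted p were *FANCI*, a crosslink repair gene (log2 difference 0.42), the 5′ exonuclease genes *XRN2* (log2 difference 0.42) and *XRN1* (log2 difference 0.42), and *OAS2*, which encodes a sensor of double-stranded RNA (log2 difference 0.30). Their limma adjusted p-values were 0.077, 0.078, 0.095 and 0.091 in that order. The DNA sensor genes *CGAS* and *IFI16*, which lie on the pathway that TREX1 restrains, were at most 0.212 and 0.185 TPM and were not tested.

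**Figure D4:**
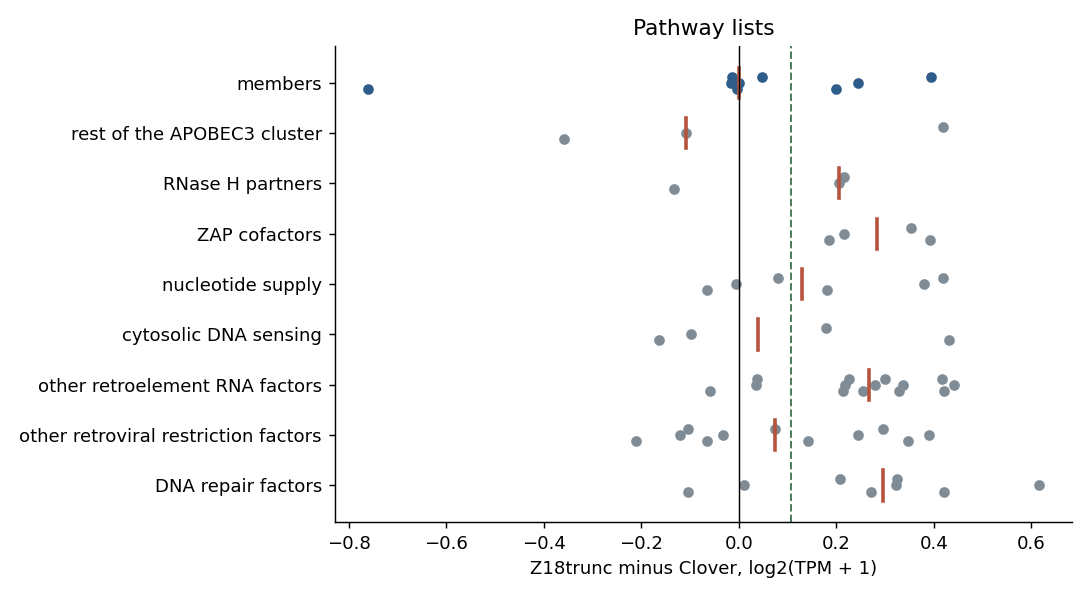
Difference between Z18trunc and Clover on the log2(TPM + 1) scale for each tested gene of the member list and of 8 related lists. Points are genes, red bars the median of each list, and the dashed line the median of all 13300 tested genes (0.11). The median of the members (0.0005) lay below that line, and the medians of the ZAP cofactors (0.28) and of the DNA repair factors (0.30) lay above it.

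A further readout came from the transposable elements (TEs) that lie inside the members themselves. The TE tables give fragments per element and strand, and fragments on the gene's strand were summed over the elements wholly inside each gene. Only elements listed with fragments on that strand entered, so an element without fragments was not seen. In the canonical GENCODE transcripts, *APOBEC3C* has a 3′ untranslated region (UTR) of 1968 bases. Such elements covered 75.2% of it, and 70.3% of the 3280 bases in *APOBEC3F*. They were also found in the 3′ UTRs of *ZC3HAV1* (4082 bases, 39.9%) and *SAMHD1* (2706 bases, 22.6%). In those of the other 5 members none was found. Most TE fragments of these 4 genes fell in the 3′ UTR, that is, within the genes' own messenger RNA, so the readout was not independent of the TPM.

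*APOBEC3C* gave the most, 19918 fragments over the 6 libraries, of which 99.9% lay in 5 elements of its 3′ UTR. These were, from 5′ to 3′, an AluJb (39018698 to 39018999), a MER65C endogenous retrovirus LTR (39019077 to 39019516), an MLT1B LTR (39019575 to 39019758), an AluSq2 (39019797 to 39020094) and a MER49 LTR (39020095 to 39020349), where the MLT1B and the AluSq2 are antisense to the gene and the others sense. Uniquely mapped fragments made up 73.1% to 81.9% of each. In the 3′ UTR of *APOBEC3F* 10 elements with fragments were found, 3 sense and 7 antisense. They include AluJb, MER65C and MLT1B copies in the same order and orientation.

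This placement bears on subfamily totals of the TE tables. Of all fragments assigned to MER65C elements on their own strand, the single copy in *APOBEC3C* held 90.0% to 92.9% in the 6 libraries, and the 2 pieces in *APOBEC3F* a further 4.80% to 6.57%. The copy in *APOBEC3C* also held 39.2% to 49.0% of the MER49 fragments. In these libraries, then, a MER65C total consisted mostly of estimated fragments inside *APOBEC3C*. The share of the gene in all TE fragments of both strands was 0.335%, 0.369% and 0.364% in Clover and 0.307%, 0.295% and 0.272% in Z18trunc, lower in each Z18trunc library. Such a share also falls when other TE fragments rise. The median log2 difference of all gene spans, in TE fragments scaled by aligned fragments, was 0.23. How many genes had a lower share in each Z18trunc library was not counted.

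**Figure D5:**
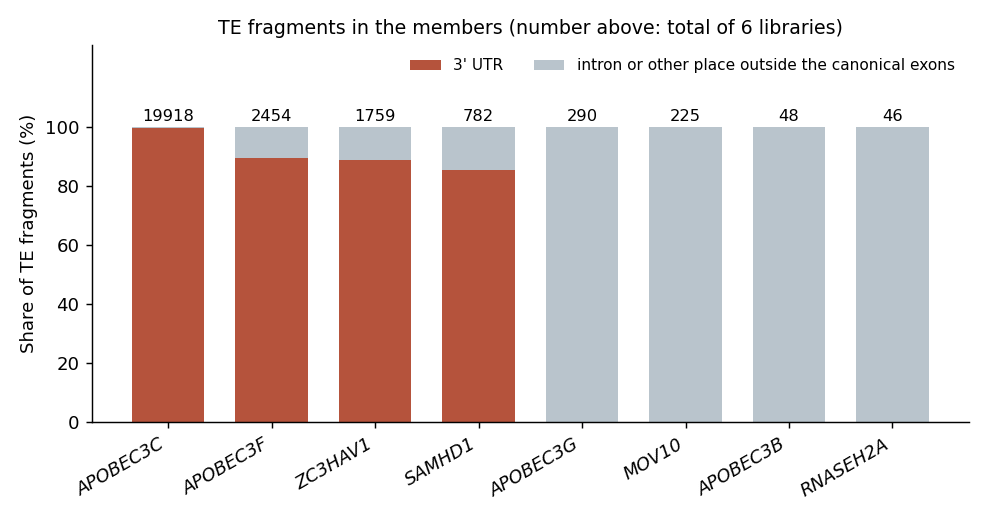
Share of TE fragments, in percent, that lay in the 3′ UTR or in introns and other places outside the canonical exons, for the 8 restriction factor genes with TE fragments. The number above each bar is the total of the 6 libraries. The 3′ UTR held 85.5% to 99.9% in APOBEC3C, APOBEC3F, ZC3HAV1 and SAMHD1 and 0% in the other 4.

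In CPM (fragments scaled by the aligned fragments of the library), the TE fragments of *APOBEC3C* were at 164, 176 and 166 in Clover and at 155, 158 and 154 in Z18trunc. Every Z18trunc value lay below every Clover value, but the log2 difference of -0.11 (SE 0.08) did not pass (edgeR adjusted p = 0.448). How many of all spans were separated in this way was not counted. Of 11469 gene spans tested with edgeR, 35 (0.305%) were called, 34 higher and 1 lower, and 0 of the 8 members with TE fragments were among them. With DESeq2 and its own size factors, which moved the median of all spans from 0.23 to 0.008, *APOBEC3C* was called lower (log2 difference -0.34, DESeq2 adjusted p = 0.0159). That was 1 of 12 alternatives, over which the adjusted p ran from 0.0159 to 0.689, and the others did not call it.

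The other members' TE fragments were fewer. Those of *APOBEC3F* were at 18.9, 20.2 and 16.7 CPM in Clover and at 22.6, 20.3 and 20.8 CPM in Z18trunc. The groups were apart by a very narrow margin (log2 difference 0.19, edgeR adjusted p = 0.394). Those of *ZC3HAV1* were at 13.2, 13.8 and 13.0 CPM and at 15.3, 14.2 and 16.3 CPM, without overlap (log2 difference 0.20, edgeR adjusted p = 0.399). The share of all spans separated upward was not counted, so neither separation can be set against a background. *SAMHD1* overlapped at 5.59 to 6.21 and 5.76 to 7.62 CPM (log2 difference 0.18, edgeR adjusted p = 0.584), and it had 662 fragments on the opposite strand beside 782 on its own. The differences of *APOBEC3F*, *ZC3HAV1* and *SAMHD1* were below the median of all spans (0.23) and turned slightly negative with TMM scaling (-0.03, -0.02 and -0.04).

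In *APOBEC3G*, *MOV10*, *APOBEC3B* and *RNASEH2A* all TE fragments lay outside the canonical exons. *APOBEC3G* had 290 of them, at 2.45, 1.31 and 2.005 CPM in Clover and at 2.94, 3.02 and 2.36 CPM in Z18trunc. The groups overlapped narrowly, and the log2 difference of 0.52 (SE 0.25, unadjusted p = 0.042) did not pass (edgeR adjusted p = 0.279). It was the only member at an unadjusted p under 0.05, against 16.0% of all spans higher and 0.863% lower, and with TMM scaling these counts over all spans changed from 1836 higher and 99 lower to 506 higher and 656 lower. *MOV10* had 225 fragments (log2 difference 0.26, SE 0.26, edgeR adjusted p = 0.625). *APOBEC3B* (47.5 estimated fragments, log2 difference 0.59, SE 0.60) and *RNASEH2A* (46 fragments, log2 difference 0.23, SE 0.58) were thinly covered. Each SE was larger than the difference of 0.52 in *APOBEC3G*, so a difference of that size could not be told from 0. No TE fragment was assigned to *TREX1* in any library.

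LINE-1 elements are among the retroelements that these factors act on at one step or another, so the youngest human subfamily, L1HS, was read beside them. Fragments on its own strand were at 31.4, 32.7 and 35.0 CPM in Clover and at 40.3, 40.1 and 53.8 CPM in Z18trunc, that is 33.0 ± 1.80 and 44.8 ± 7.86 CPM (SD, n = 3 each). All Z18trunc libraries were higher, with a two-sided exact permutation p = 0.1, the smallest that 3 against 3 libraries can give. As a share of the TE fragments of both strands the groups overlapped, and the log2 ratio was 0.25 rather than 0.44 (two-sided exact permutation p = 0.2). The third Z18trunc library had the highest L1HS value and also the lowest *TREX1* value of the 6, and any tie between them was not tested. Without it the log2 ratio of L1HS in CPM was 0.28. Most L1HS fragments were not uniquely mapped. Those that were made up 259 of 706, 228 of 625 and 251 of 687 estimated fragments in Clover. In Z18trunc they were 343 of 905, 251 of 731 and 369 of 1130.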

How the data were processed

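Polyadenylated RNA of 3 Clover and 3 Z18trunc SW480 libraries was analysed, grouped by sample titles. The authors trimmed reads with Cutadapt 4.6, mapped them to hg38 and counted TEs with SQuIRE. The deposited gene tables, in the layout of StringTie, hold TPM, FPKM and coverage per base, without counts, and the version behind these tables was not clear from the sources used here. The deposited TE tables hold uniquely mapped counts and estimated counts, in which multiply mapped fragments are shared among loci.

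TPM were summed by gene. For the 13300 genes with a mean of at least 1 TPM, limma 3.58.1 (R 4.3.3) was applied to log2(TPM + 1). Estimated counts of TE loci inside gene spans (bedtools 2.31.1, gene's strand, GENCODE 44 exons) were rounded and tested with edgeR 4.0.16 (quasi-likelihood, at least 30 counts, library size the aligned fragments). Benjamini-Hochberg adjustment ran over every feature tested, and calls were made at 0.05. L1HS was compared by an exact permutation test. Alternatives were pseudocount 0.1, no filter, quantile normalization, FPKM, an intensity trend, a replicate block, TMM scaling, DESeq2 1.42.0, other count filters, unique counts, L1HS as a share of TE fragments and leaving out each library. Scaled coverage and *TREX1* summed with its overlapping genes were chosen after seeing the data. The fits were tested on simulated data.

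The members and lists were chosen with earlier results of these data known. All 9 members, the close partner lists and *ZC3H18* were named, plus the 4 genes of the wider lists with the smallest p. Of the 5 genes most like *SAMHD1* in pattern, 1 is not reported here. Paralogs and overlapping genes may share reads. Intervals and limits cover the spread between libraries only.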

Additional observations from a re-analysis of the deposited data

How the results depend on the processing

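None of the 9 members was called by limma under any of the 13 alternatives for TPM, with 1 to 3 members higher at an unadjusted p under 0.05 and 1 lower, *TREX1*, without the second Z18trunc library alone. Over all genes the 2 calls became 1 with a pseudocount of 0.1, 1 with no filter, 1 after quantile normalization, 60 with an intensity trend, 1 with a replicate block, and 1 to 4 on leaving out a library (4 without the second Clover library, 1 without the first Z18trunc library). Over gene spans the 35 edgeR calls on TE fragments became 10 with TMM scaling, 80 with DESeq2, 119 with at least 100 counts, 209 with no filter beyond 1 count, 189 with uniquely mapped counts, 10 with a replicate block, and 0 to 239 on leaving out a library. They were 0 without the second Clover library (with 1434 spans up and 79 down at an unadjusted p below 0.05), 239 without the first Z18trunc library, 84 without the first Clover library, 9 without the third Clover library, 5 without the second Z18trunc library and 4 without the third.

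Several log2 differences changed sign. In TPM, where all were within 0.05 of 0, these were *APOBEC3F* after quantile normalization (-0.094) and in FPKM (-0.016), and *APOBEC3C* in FPKM (-0.066), in scaled coverage (-0.077), without the first (-0.004) and second (-0.008) Clover library and without the second Z18trunc library (-0.014). *APOBEC3B* changed without the first Clover library (0.00032), *RNASEH2A* without the second Clover (0.008) or the third Z18trunc library (0.033), and *MOV10* without the third Clover (0.029) or the third Z18trunc library (0.011). Leaving out each library in turn gave ranges of -0.040 to 0.00032 for *APOBEC3B*, -0.014 to 0.014 for *APOBEC3C*, -0.049 to 0.033 for *RNASEH2A* and -0.029 to 0.029 for *MOV10*. For TE fragments, TMM scaling and DESeq2 gave -0.027 and -0.032 for *APOBEC3F*, -0.035 and -0.042 for *SAMHD1* and -0.024 and -0.029 for *ZC3HAV1*. The thinly covered *RNASEH2A* (0.23 with all libraries) gave -0.011 without the second Clover library and -0.55 without the first Z18trunc library, and *APOBEC3B* (0.59 with all libraries) gave -0.13 without the latter, within leave-one-out ranges of -0.55 to 0.69 for *RNASEH2A* and -0.13 to 1.33 for *APOBEC3B*. The cause was not tested.

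Deviations from the group means correlated at -0.036, 0.017 and -0.037 between samples with the same number. With 3 libraries per group such values cannot show whether these samples shared handling. The replicate block changed no member's call. The log2 ratio of L1HS was 0.36 with uniquely mapped counts and 0.25 as a share of TE fragments, where the groups overlapped, and ran from 0.28 to 0.51 on leaving out a library. Depth limits the TE readout of *APOBEC3B* and *RNASEH2A*.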
